A study of Schizosaccharomyces pombe with 29 samples.

Results

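The 10 genes described here are 6 flocculin genes of the fission yeast Schizosaccharomyces pombe, gsf2, pfl2, pfl3, pfl4, pfl5 and pfl7, and 4 genes for transcription factors that act on flocculation, mbx2, cbf12, adn2 and adn3. They were chosen by gene name, each name matched 1 ID, and together they are 10 of the 6986 gene IDs in the deposited count table. Polyadenylated RNA was measured in 31 libraries of 10 groups, all of strains that carry an altered or rebuilt tail, the carboxy-terminal domain (CTD), on the Rpb1 subunit of RNA polymerase II, beside a NatMX drug marker where the labels give one. The CTD is a chain of 7-residue repeats, or heptads, whose phosphorylation changes as transcription proceeds.

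The alleles Y1F, S2A and S2A-S7A (h+, 29 heptads, 3 libraries each) replace the named residues of each heptad. ALT-P3A, ALT-S5A and ALT-P6A (h+, 29 heptads, 3 libraries each) carry the named change under a prefix that the labels do not spell out. T4A (29 heptads, 3 libraries, mating type and marker not given) comes from an earlier series and was read on a different instrument. WT18 (18 unchanged heptads, 4 libraries) joins 2 new h+ libraries with 2 earlier libraries from h- cells with the markers ade6, ura4-D18 and leu1-32, which also differ in RNA purification, library kit and instrument. The controls are WT29 set 2 and WT29 set 1, both h+ with 29 unchanged heptads and both given 1 strain number. The labels name set 1 as the control of Y1F, S2A and S2A-S7A, and set 2 as the control of the other alleles. The 3 count columns of set 2 were assigned to its 1 sample record by elimination, since their numbers, 4 to 6, stand in no other title. For the alleles paired with set 2, the mean control signals in the authors' deposited tables missed these columns by 28.7% (median over genes). They missed the columns of set 1 by 15.5%. Calls against set 2 are thus calls against these columns, which may not be the control the authors used. Each new group is 1 strain, so an allele cannot be told apart from other differences of its strain. All grew in rich YES medium, at 30 °C where a temperature is given. Separate cultures are stated for the 2 earlier WT18 libraries alone, so the p-values measure the spread between libraries, which may be technical.

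Flocculins are glycoproteins of the yeast cell surface that bind sugars on neighbouring cells and make cells clump into flocs. In fission yeast Gsf2 is the main galactose-specific flocculin, and the Pfl proteins are its relatives. The MADS-box factor Mbx2 and the CSL-family factor Cbf12 activate flocculation genes, and Adn2 and Adn3 are transcription regulators named for the poor adhesion of cells that lack them. In rich medium wild-type cells do not flocculate.

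Total counts ran from 15243598 to 35763201 per library (median 22835109). Levels are CPM, each gene's counts put on a common scale per library, with all libraries scaled together by TMM, a factor that corrects for a few dominant RNAs. Every fold and adjusted p is that of edgeR's quasi-likelihood test with Benjamini-Hochberg adjustment over all genes tested, each allele being fitted with 1 control set at a time. A gene is called higher or lower at an adjusted p under 0.05 and a change of at least 2-fold. Log2 fold changes are allele over WT29 and are given ± SE. The RNA came from whole cultures, so fewer cells with a transcript and less of it in each cell cannot be told apart.

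All 10 genes were counted in every library and tested in every comparison, and 1 flocculin dominated. Per kb of exon, pfl2 stood at 244 to 686 CPM per kb over the 10 group means, whereas the other 5 flocculins stood between 0.45 CPM per kb (pfl7 in Y1F) and 82.4 CPM per kb (pfl3 in S2A). Thus pfl2 made up 76.8% (WT29 set 2) to 92.9% (T4A) of the summed flocculin level per kb. Of the regulators, adn3 had the highest median of the group means at 33.4 CPM per kb, and mbx2 had the lowest at 8.42 CPM per kb. The genes differed widely in how much they varied. The highest group mean was 53.3 times the lowest for pfl7, 9.35 times for pfl3, 4.35 times for gsf2, 3.63 times for adn2, 3.52 times for cbf12 and 2.81 times for pfl2, and it was between 1.74 times (pfl5) and 2.31 times (pfl4) for the remaining 4.

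**Figure D1:**
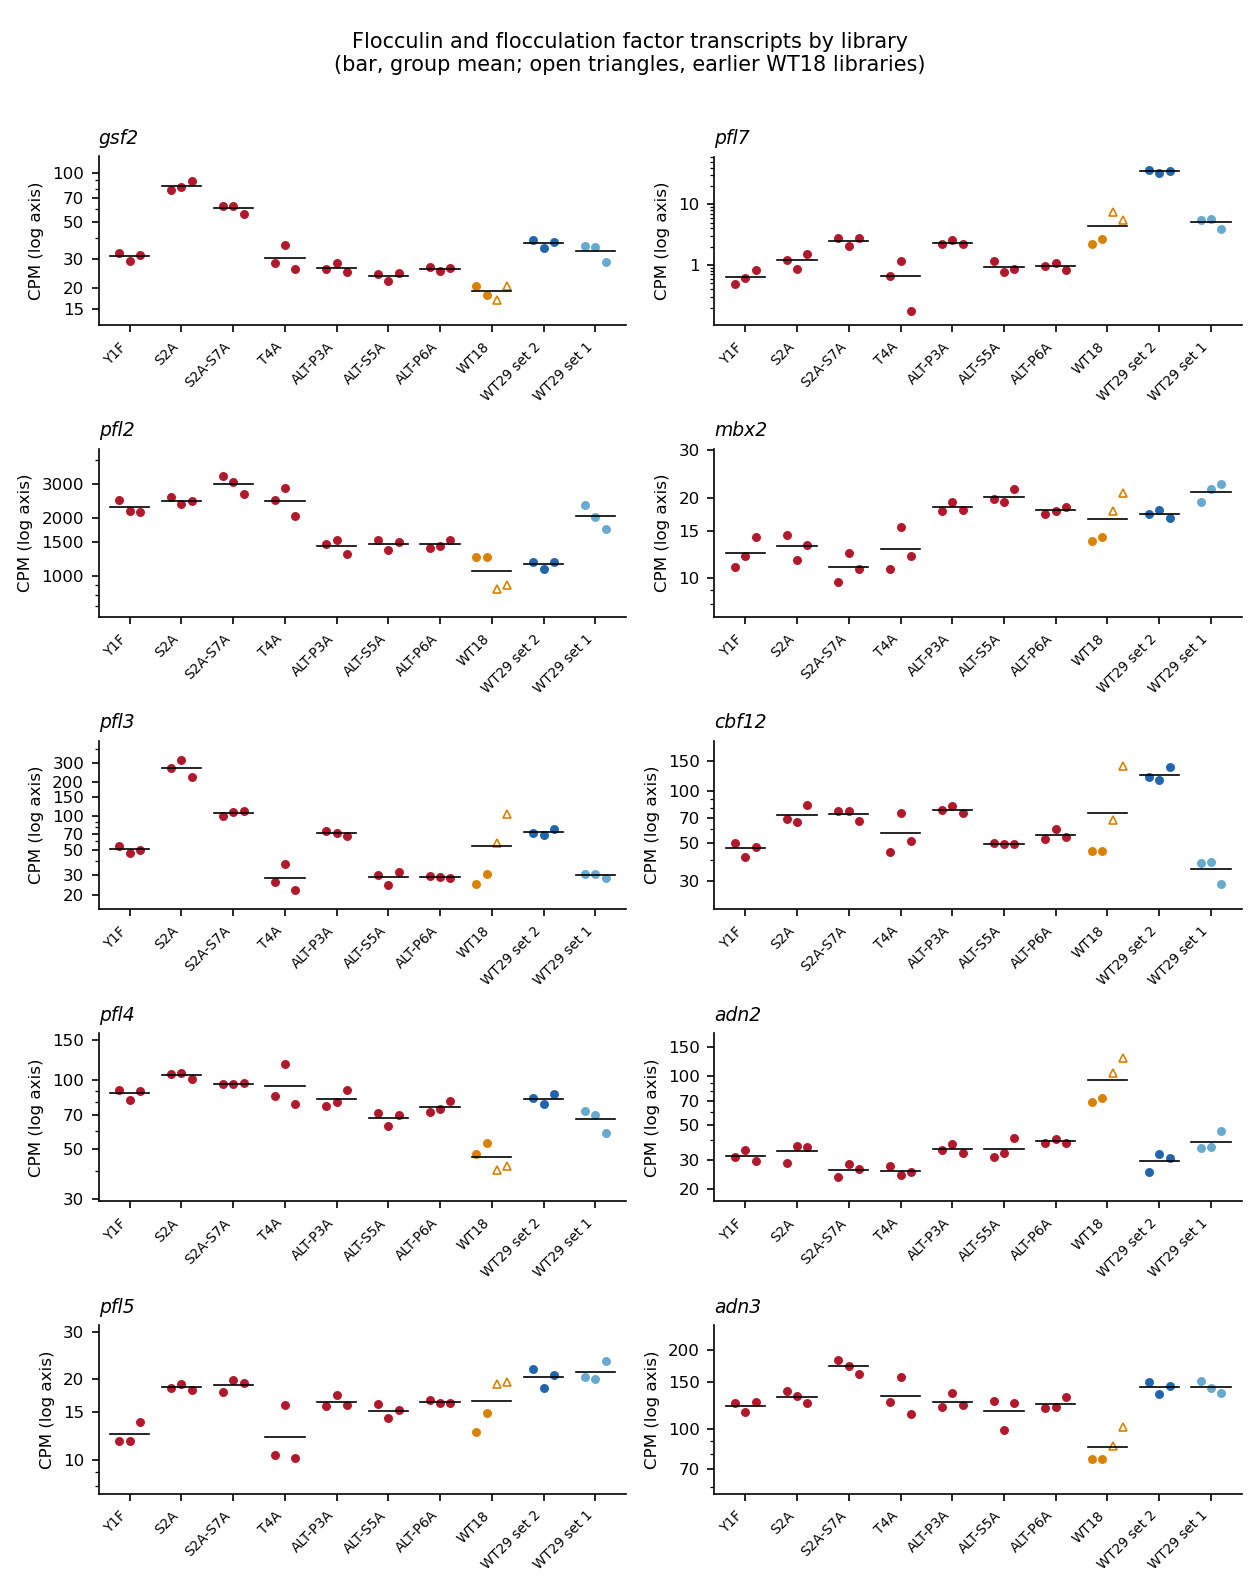
Level of each of the 10 genes in CPM (log axis) in every library, by group, with the 8 CTD alleles left of WT29 set 2 and WT29 set 1; points are libraries, bars are group means and open triangles are the 2 earlier WT18 libraries. By group mean, WT29 set 2 is highest for pfl7 and cbf12, S2A for pfl3 and gsf2, and WT18 for adn2.

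The control sets were compared first, because they carry 1 strain label and yet differed in 3 of the 10 genes. Set 2 was called higher in pfl7, pfl3 and cbf12 and lower in none, where 5.03% of 6043 genes tested were called higher and 3.86% lower. The pfl7 difference was known beforehand and was the reason for using both sets, so its place in this count is no new result. Levels of pfl7 were 35.8, 31.9 and 35.7 CPM in set 2 and 5.42, 5.71 and 3.90 CPM in set 1. For pfl3 they were 71.0, 68.5 and 78.0 CPM in set 2 and 30.7, 30.9 and 28.4 CPM in set 1, and for cbf12 they were 120, 116 and 137 CPM in set 2 and 38.2, 38.7 and 29.0 CPM in set 1. No library of 1 set reached into the range of the other for these 3 genes. The log2 differences, set 2 over set 1, were 2.83 ± 0.18 for pfl7 (7.12-fold, adjusted p = 7e-06), 1.32 ± 0.10 for pfl3 (2.50-fold, adjusted p = 1.7e-05) and 1.87 ± 0.12 for cbf12 (3.65-fold, adjusted p = 8.1e-06). The dominant flocculin pfl2 was lower in set 2, short of 2-fold (-0.77 ± 0.10, adjusted p = 0.00036). What sets the controls apart was not tested, so each allele is given against both, and a call is described as held when it was made against both.

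Every allele had at least 1 of the 10 genes called against the control that its labels name. Over the 80 pairs of gene and allele, 7 were called higher and 13 lower against the named control, set 2 being the columns assigned to it. By allele, 1.96% to 24.8% of all genes were called higher there and 1.07% to 11.7% lower. Against set 1 for all alleles 9 were called higher and 6 lower (all genes, 4.29% to 15.6% and 3.68% to 9.61%). Against set 2 for all alleles 6 were called higher and 15 lower (1.96% to 24.8% and 1.07% to 11.7%). Those 15 were pfl7 (8), cbf12 (4) and pfl3 (3), the genes called higher in set 2 than in set 1. The pairs share their controls. The calls that held numbered 3 higher (gsf2 and pfl3 in S2A, adn2 in WT18) and 6 lower, all of them pfl7. No pair was called in opposite directions by the 2 sets.

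By allele, Y1F had 0 genes higher and 1 lower against set 1, where 4.68% of genes were called higher and 5.11% lower, and 0 higher and 2 lower against set 2, where 7.18% and 7.03% were. S2A had 3 higher and 1 lower against set 1 (background 7.23% and 5.63%) and 3 higher and 1 lower against set 2 (7.11% and 7.42%). S2A-S7A had 2 higher and 0 lower against set 1 (5.89% and 9.61%) and 1 higher and 1 lower against set 2 (6.16% and 7.13%). In T4A 1 was higher and 3 lower against set 2 (5.27% and 7.89%), and 0 were higher and 1 lower against set 1 (4.29% and 5.78%). The count in S2A, 3 of 10 higher by either control, was thus above the share of all genes. Only gsf2 and pfl3 were in both counts, with cbf12 the third against set 1 and pfl2 the third against set 2. Each count ranged from 2 to 3 when 1 library was left out. A count of 1 of 10, as in most of these comparisons, is near what the background alone gives. ALT-P3A had 0 higher and 1 lower against set 2, where 1.96% and 1.07% of genes were called, and 2 higher and 1 lower against set 1 (5.51% and 3.68%). ALT-S5A had 0 higher and 3 lower against set 2 (2.96% and 2.84%), and 0 higher and 1 lower against set 1 (6.18% and 4.16%). ALT-P6A had the same counts, 0 higher and 3 lower against set 2 (3.12% and 3.23%) and 0 higher and 1 lower against set 1 (4.84% and 4.76%). WT18 had 1 higher and 1 lower against set 2, where 24.8% and 11.7% of all genes were called, and 2 higher and 0 lower against set 1 (15.6% and 8.96%), so its shares lay near or under those of all genes.

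**Figure D2:**
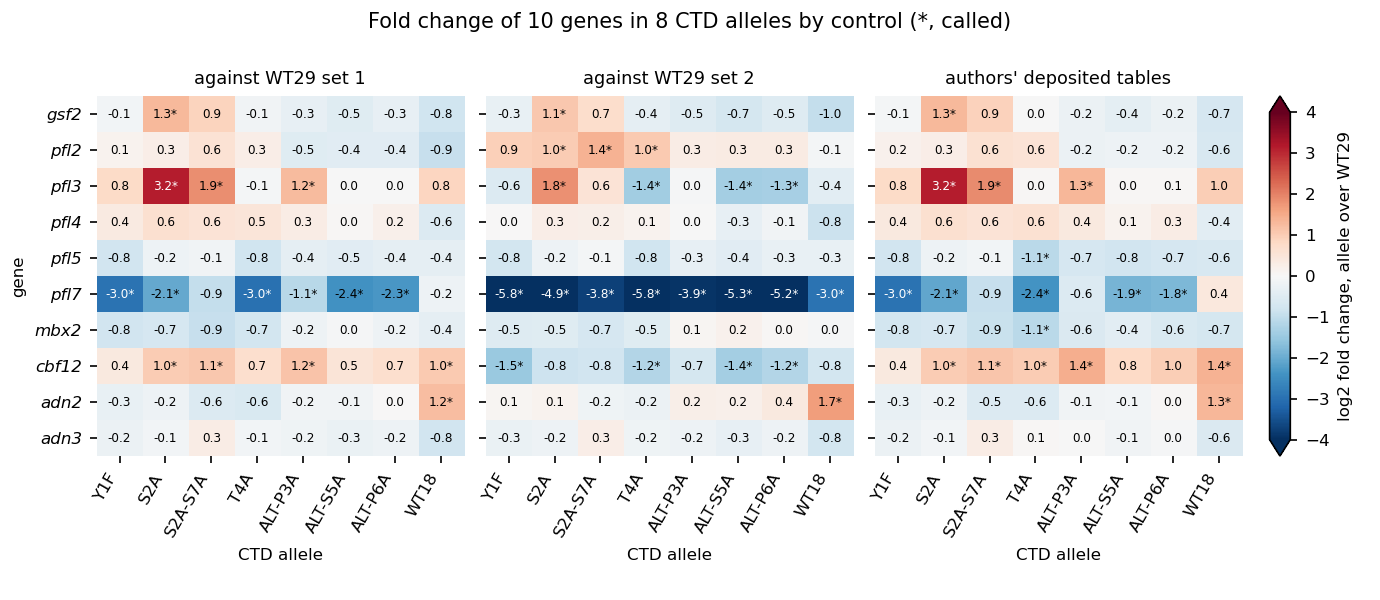
Log2 fold change (colour and number) of the 10 genes in the 8 CTD alleles over WT29, against set 1, against set 2 and in the authors' deposited tables; a star marks an adjusted p under 0.05 with at least a 2-fold change. The pfl7 line is blue in every allele against set 2, and cbf12 turns from red against set 1 to blue against set 2.

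The flocculin gene pfl7 fell in 6 alleles against either control and had the lowest median of the group means among the 10 (1.22 CPM per kb). Y1F had 0.490, 0.610 and 0.842 CPM of pfl7, T4A had 0.669, 1.15 and 0.176 CPM, and S2A had 1.20, 0.857 and 1.52 CPM. ALT-S5A had 1.16, 0.759 and 0.876 CPM, ALT-P6A had 0.968, 1.09 and 0.843 CPM, and ALT-P3A had 2.22, 2.56 and 2.19 CPM. All 18 of these libraries lay below the 6 WT29 libraries, whose lowest value was 3.90 CPM. The depth behind the low values was thin, with 4 to 19 reads per library in T4A and 10 to 18 in Y1F, against 712 to 865 in set 2 and 82 to 133 in set 1.

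Against set 1, pfl7 was lower by log2 -2.95 ± 0.26 in Y1F (7.75-fold, adjusted p = 8.3e-07), -2.98 ± 0.42 in T4A (7.90-fold, adjusted p = 0.0004) and -2.06 ± 0.28 in S2A (4.17-fold, adjusted p = 0.00032). The ALT alleles followed with -1.11 ± 0.19 in ALT-P3A, -2.34 ± 0.23 in ALT-P6A and -2.42 ± 0.26 in ALT-S5A. Against set 2 the same alleles stood much lower, at -5.76 ± 0.20 in Y1F (54.4-fold), -5.81 ± 0.41 in T4A (56.0-fold), -4.90 ± 0.23 in S2A, -3.91 ± 0.14 in ALT-P3A, -5.15 ± 0.16 in ALT-P6A and -5.26 ± 0.21 in ALT-S5A. The fold of pfl7 in an allele thus depended on the control by about the log2 difference between the sets, and its direction did not. The authors' deposited table also calls pfl7 lower in 5 of the 6, by -2.95 in Y1F, -2.07 in S2A, -2.40 in T4A, -1.80 in ALT-P6A and -1.86 in ALT-S5A, but gives -0.55 in ALT-P3A (adjusted p = 0.0998 in that table).

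The remaining alleles did not hold. S2A-S7A had 2.81, 2.02 and 2.73 CPM of pfl7, below the libraries of both sets, and fell by 3.75 ± 0.20 on the log2 scale against set 2. Against set 1 its difference of -0.94 ± 0.22 (adjusted p = 0.0056) was just short of 2-fold, and it passed without set 1 replicate 3 (-1.08), without S2A-S7A replicate 1 (-1.02) or without S2A-S7A replicate 3 (-1.01). WT18 split by origin, with 2.25 and 2.66 CPM in the new libraries and 7.32 and 5.51 CPM in the earlier ones. It fell against set 2 (-2.95 ± 0.38, adjusted p = 0.00042; -3.77 with the new libraries alone and -2.29 with the earlier ones alone) and stood at -0.19 ± 0.42 against set 1 (adjusted p = 0.71; -0.99 and 0.37).

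**Figure D3:**
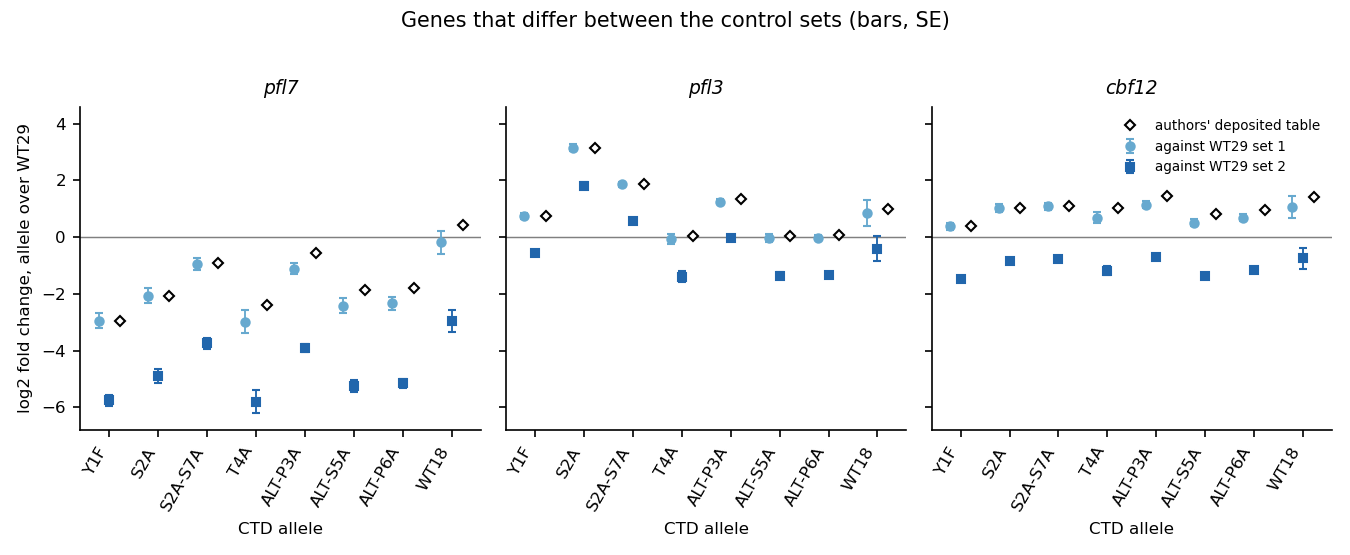
Log2 fold change, allele over WT29, of the 3 genes that differ between the control sets, in each CTD allele (bars, SE): circles against set 1, squares against set 2, open diamonds the authors' deposited tables. All squares lie below their circles, pfl7 stays under 0 for 7 of 8 alleles with every reference, and cbf12 changes sign with the set in all 8.

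The flocculin gene pfl3 rose in S2A against either control. Its levels were 268, 315 and 222 CPM in S2A, against 71.0, 68.5 and 78.0 CPM in set 2 and 30.7, 30.9 and 28.4 CPM in set 1. Every S2A library exceeded every other library of the study, of which the highest was 111 CPM. The log2 fold change was 3.15 ± 0.13 against set 1 (8.88-fold, adjusted p = 1.8e-07) and 1.82 ± 0.13 against set 2 (3.53-fold, adjusted p = 8.1e-06), and the authors' deposited table gives 3.15. In S2A, pfl3 made up 12% of the summed flocculin level per kb, against 6.49% in set 2 and 1.82% in set 1.

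The double allele S2A-S7A had less pfl3 than S2A, at 100, 109 and 111 CPM, with no overlap of the libraries; the 2 alleles were not tested against each other. It rose against set 1 (1.86 ± 0.08, adjusted p = 2.3e-06), and against set 2 its difference of 0.56 ± 0.08 (adjusted p = 0.00022) was short of 2-fold. In ALT-P3A, pfl3 stood at 74.5, 70.8 and 67.7 CPM, inside the range of set 2 save 1 library, and rose against set 1 alone (1.25 ± 0.09, adjusted p = 1.4e-07; -0.04 ± 0.07 against set 2). The authors' deposited table, whose control by the labels is set 2, calls it higher there (1.33, adjusted p = 6.01e-19 in that table). Y1F lay between the sets at 55.1, 47.7 and 49.9 CPM, with 0.75 ± 0.10 against set 1 and -0.55 ± 0.09 against set 2.

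T4A, ALT-S5A and ALT-P6A had pfl3 levels near set 1, from 22.3 to 37.8 CPM in 9 libraries. They were called lower against set 2, by -1.39 ± 0.18, -1.36 ± 0.12 and -1.32 ± 0.08 in that order, and stood at -0.07, -0.03 and -0.02 against set 1. For these alleles, whose control by the labels is set 2, the authors' deposited table gives 0.04, 0.05 and 0.06. In WT18 the libraries ran from 24.9 and 30.8 CPM (new) to 57.6 and 106 CPM (earlier). There pfl3 was called lower with the new libraries alone against set 2 (-1.34) and higher with the earlier ones alone against set 1 (1.46), and with all 4 libraries it passed against neither (-0.41 ± 0.44 and 0.85 ± 0.45). Against set 1 it passed without WT18 replicate 1 (1.08).

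The main flocculin gene gsf2 was highest in S2A too. It stood at 78.3, 82.0 and 88.6 CPM in S2A, against 39.3, 35.1 and 38.0 CPM in set 2 and 36.0, 35.3 and 28.6 CPM in set 1. The S2A libraries lay above all 28 others. The change was 1.31 ± 0.12 against set 1 (2.48-fold, adjusted p = 2.5e-05) and 1.08 ± 0.10 against set 2 (2.12-fold, adjusted p = 3.9e-05), and the authors' deposited table gives 1.31. S2A-S7A came next at 63.2, 63.1 and 56.5 CPM, above all WT29 libraries but short of 2-fold (0.90 ± 0.11 against set 1 and 0.71 ± 0.11 against set 2). The lowest levels were those of WT18, at 20.5, 18.2, 16.9 and 20.6 CPM, where new and earlier libraries lay together. Its difference from set 2 was -0.96 ± 0.13 (adjusted p = 0.00051), and it passed without WT18 replicate 1 (-1.0) or set 2 replicate 5 (-1.01). In the other alleles gsf2 lay between 22.2 and 36.6 CPM and was not called.

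The dominant pfl2 was called higher in S2A, S2A-S7A and T4A against set 2 and in no allele against set 1. It had 3279, 3075 and 2663 CPM in S2A-S7A, against 1182, 1097 and 1179 CPM in set 2 and 2327, 2034 and 1757 CPM in set 1. The S2A-S7A libraries lay above both sets, and the log2 fold change was 1.39 ± 0.10 against set 2 and 0.59 ± 0.11 against set 1. S2A (2355 to 2571 CPM) and T4A (2053 to 2845 CPM) stood at 1.02 ± 0.10 and 1.04 ± 0.13 against set 2, and at 0.26 and 0.27 against set 1. Both are at the edge of the threshold, with 0.98 for S2A without set 2 replicate 5 and 0.94 for T4A without T4A replicate 2. In the ALT alleles pfl2 lay between the sets, at 1299 to 1548 CPM. WT18 had 1264 and 1261 CPM in the new and 856 and 897 CPM in the earlier libraries, and was called lower against set 1 with the earlier libraries alone (-1.20) or without WT18 replicate 1, WT18 replicate 2 or set 1 replicate 3 (-1.03 each; -0.93 ± 0.20 with all 4).

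The flocculin genes pfl4 and pfl5 were not called in any allele against either control. For pfl4 the group means ran from 45.7 ± 5.91 CPM in WT18 (SD, n = 4) to 105 ± 3.18 CPM in S2A (SD, n = 3), against 83.1 ± 4.14 CPM in set 2 and 67.4 ± 7.83 CPM in set 1 (SD, n = 3 each). The difference was -0.85 ± 0.14 in WT18 against set 2 and 0.64 ± 0.10 in S2A against set 1. For pfl5, Y1F had 11.8, 11.7 and 13.8 CPM and T4A had 10.4, 16.0 and 10.1 CPM, against 21.8, 18.5 and 20.7 CPM in set 2 and 20.4, 19.99 and 23.4 CPM in set 1. Both alleles lay below every WT29 library, at -0.75 to -0.81 against either set, and T4A passed 2-fold without T4A replicate 2 (-1.01 against set 2 and -1.04 against set 1). The authors' deposited table calls pfl5 lower in T4A (-1.09). The control sets hardly differed in pfl5 (-0.01 ± 0.14).

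Among the regulators, mbx2 was lower in Y1F, S2A, S2A-S7A and T4A, in no case by 2-fold. The levels were 10.97, 12.1 and 14.3 CPM in Y1F, 14.5, 11.7 and 13.3 CPM in S2A, 9.71, 12.4 and 10.9 CPM in S2A-S7A and 10.9, 15.5 and 12.1 CPM in T4A, against 17.4, 17.9 and 16.8 CPM in set 2 and 19.2, 21.4 and 22.5 CPM in set 1. All 12 libraries of the 4 alleles lay below the 6 WT29 libraries. The log2 differences from set 1 were -0.77 ± 0.13, -0.68 ± 0.16, -0.91 ± 0.15 and -0.72 ± 0.18 in that order of alleles, and those from set 2 were -0.52, -0.47, -0.66 and -0.49, of which T4A against set 2 had an adjusted p of 0.054. The authors' deposited table calls mbx2 lower in T4A (-1.09). The ALT alleles had 17.4 to 21.6 CPM and WT18 had 13.8 to 20.8 CPM. In S2A and S2A-S7A, mbx2 was thus lower while the flocculin genes gsf2 and pfl3 had their highest levels.

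Reads at mbx2 share their place with another RNA. SPNCRNA.1626, a long non-coding RNA, covers all 2020 bases of mbx2 on the opposite strand in the reference annotation, and it had 106 to 683 CPM over the libraries. The kit keeps strand, but no source used here says whether reads were counted by strand, so the small mbx2 counts may hold reads of this RNA. It stood at 633 ± 43.3 CPM in S2A-S7A, 428 ± 57.5 CPM in S2A, 385 ± 21.7 CPM in T4A and 291 ± 29.2 CPM in Y1F, against 316 ± 45.6 CPM in set 2 and 127 ± 18.8 CPM in set 1 (SD, n = 3 each). Against set 1 it was higher in all 4, by 2.35 ± 0.11, 1.75 ± 0.13, 1.59 ± 0.12 and 1.18 ± 0.10, and against set 2 it was called in S2A-S7A (1.01 ± 0.11, adjusted p = 1.8e-05), with 0.37, 0.24 and -0.16 in the others. The ALT alleles also exceeded set 1 in this RNA (0.97 to 1.52), where mbx2 stood at -0.04 to -0.21. Whether the 2 RNAs affect each other was not tested. Each of the 10 genes overlaps at least 1 gene annotated on the opposite strand, so the question of strand applies to all of them, to an unequal extent. The counted RNA opposite pfl2 overlaps it by 71 bases and had 15.9 to 42.1 CPM. The counted RNA opposite pfl3 had no more than 0.429 CPM. Many of the overlapping RNAs were not counted.

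**Figure D4:**
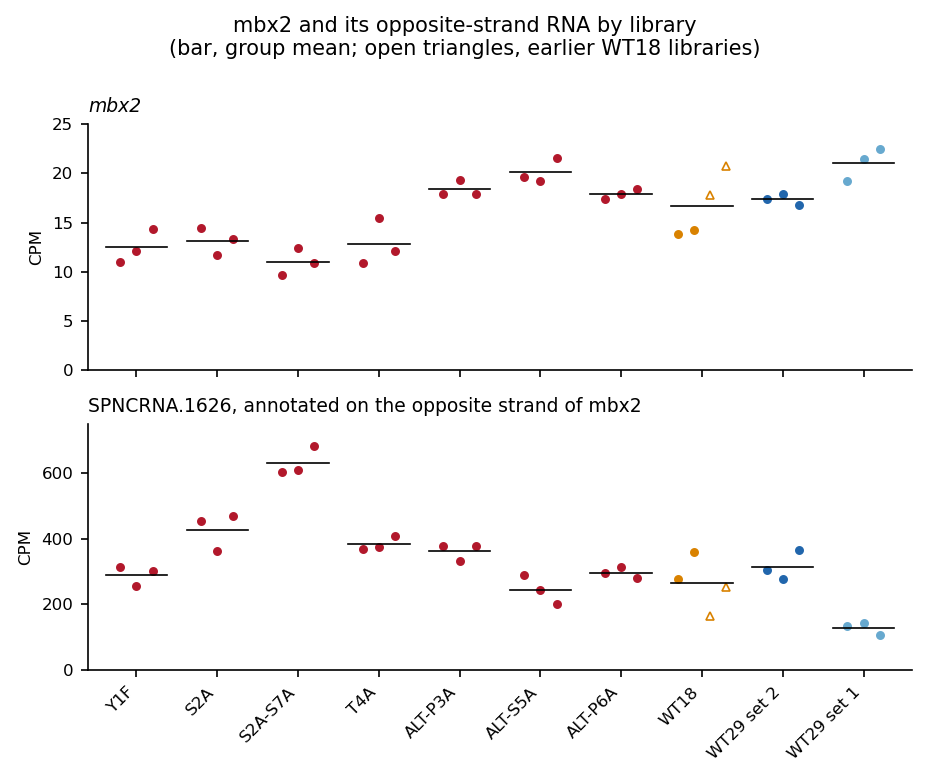
Level in CPM of mbx2 (top) and of SPNCRNA.1626, annotated on its opposite strand (bottom), in every library, with the 8 CTD alleles left of WT29 set 2 and WT29 set 1; points are libraries, bars are group means and open triangles are the 2 earlier WT18 libraries. Y1F, S2A, S2A-S7A and T4A sit at 9.71 to 15.5 CPM of mbx2, below all WT29 libraries, and S2A-S7A has the most of the opposite RNA.

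The flocculation activator gene cbf12 was between the control sets in every allele. Group means ran from 46.4 ± 4.33 CPM in Y1F to 77.9 ± 3.93 CPM in ALT-P3A, against 124 ± 11.1 CPM in set 2 and 35.3 ± 5.48 CPM in set 1 (SD, n = 3 each). Hence all 8 alleles had a positive fold change against set 1 and a negative one against set 2, and none was called by both. Higher calls against set 1 were those of S2A (1.03 ± 0.14), S2A-S7A (1.08 ± 0.12), ALT-P3A (1.15 ± 0.11) and WT18 (1.05 ± 0.39, adjusted p = 0.044). Lower calls against set 2 were those of Y1F (-1.47 ± 0.09), T4A (-1.18 ± 0.17), ALT-S5A (-1.37 ± 0.09) and ALT-P6A (-1.16 ± 0.08). For the 5 alleles with set 2 as their named control the authors' deposited table has the opposite sign to the fits against set 2. It calls cbf12 higher in T4A (1.01), ALT-P3A (1.45) and WT18 (1.40) and gives 0.97 in ALT-P6A and 0.81 in ALT-S5A, whereas the fits gave -1.18, -0.69, -0.75, -1.16 and -1.37 in that order. Several of these calls rest on 1 library. S2A stood at 0.92 without set 1 replicate 3 and at 0.93 without S2A replicate 3, and S2A-S7A at 0.97 without set 1 replicate 3.

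WT18 had the widest spread in cbf12, at 45.1 and 44.9 CPM in the new libraries and 67.4 and 139 CPM in the earlier ones. Against set 1 its call was lost with the new libraries alone (0.39), held with the earlier ones alone (1.56), and was lost without any 1 of the 3 set 1 libraries (0.92 to 1.12), without WT18 replicate 3 (1.11) or without WT18 replicate 4 (0.58). Against set 2 it was called lower with the new libraries alone (-1.42) or without WT18 replicate 4 (-1.22), and not with all 4 (-0.75 ± 0.37).

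The regulator gene adn2 rose in WT18 alone among the alleles, against either control. It had 68.8 and 72.7 CPM in the new and 104 and 130 CPM in the earlier WT18 libraries, against 25.5, 32.8 and 31.0 CPM in set 2 and 35.6, 36.5 and 45.5 CPM in set 1. All 4 lay above the other 27 libraries of the study, whose highest was 45.5 CPM. The log2 fold change was 1.66 ± 0.23 against set 2 (3.15-fold, adjusted p = 0.00055) and 1.24 ± 0.22 against set 1 (2.37-fold, adjusted p = 0.0022), and the authors' deposited table gives 1.32. With the new h+ libraries alone it was 1.29 against set 2 and 0.89 against set 1 (adjusted p = 0.00027), and with the earlier ones alone 2.11 and 1.59. WT18 is also the allele in which the most genes in all were called. The gene tim21, which overlaps the end of adn2 by 19 bases on the opposite strand, also rose in WT18 against set 2 (1.12 ± 0.18) and stood at 0.58 ± 0.16 against set 1.

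The regulator gene adn3 varied little and was not called anywhere. It had 183, 174 and 162 CPM in S2A-S7A, the highest group, and 76.7, 76.6, 85.5 and 102 CPM in WT18, the lowest, against 151, 135 and 146 CPM in set 2 and 152, 143 and 136 CPM in set 1. WT18 was lower by -0.75 ± 0.11 against set 2 and -0.76 ± 0.11 against set 1, so adn2 and adn3 lay on opposite sides of WT29 in that allele. The control sets differed by 0.05 ± 0.07 in adn3.

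The 10 genes did not move as 1 group across the alleles. Over the 10 group means of log2 CPM, which share their control sets and scaling, gsf2 and pfl3 had a Pearson r of 0.81, gsf2 and pfl4 one of 0.76, and pfl5 and pfl7 one of 0.74. With gsf2, the other flocculins had r = 0.68 (pfl2), 0.40 (pfl5) and 0.04 (pfl7), and the regulators had r = 0.69 (adn3), 0.27 (cbf12), -0.53 (adn2) and -0.56 (mbx2). The lowest values were -0.89 for pfl4 with adn2 and -0.85 for adn2 with adn3. These are descriptions of 10 points each.

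Among 5173 other expressed genes, the patterns closest to each called member were found over the same 10 group means. For pfl7 they were the zinc transporter gene zrt1 (r = 0.925), rpb1 itself (r = 0.924) and urb2 (r = 0.919). The rpb1 transcript stood at 62.8 ± 22.2 CPM in T4A, 84.0 ± 5.13 CPM in Y1F and 180 ± 6.28 CPM in S2A-S7A, against 473 ± 40.0 CPM in set 2 and 166 ± 10.5 CPM in set 1 (SD, n = 3 each), so both transcripts were highest in set 2. For pfl3 they were an RNA antisense to SPAC56F8.12 (r = 0.956), SPAC5H10.04 (r = 0.934) and the mating adhesin gene map4 (r = 0.925). For gsf2 the closest was cft1, a subunit gene of the cleavage and polyadenylation complex (r = 0.981), for cbf12 mfs3 (r = 0.865), and for adn2 utp5 (r = 0.991). For pfl2 the closest were the 14-3-3 protein gene rad24 (r = 0.966) and SPAPB18E9.05c (r = 0.954), which is also its downstream neighbour.

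Some neighbouring genes changed beside a member and others did not. Against set 2, SPAPB18E9.05c was higher in T4A (1.28 ± 0.11, beside 1.04 for pfl2) and in S2A-S7A (1.31 ± 0.11, beside 1.39). Against set 1 it stood short of 2-fold, at 0.55 ± 0.14 and 0.56 ± 0.12 (beside 0.27 and 0.59 for pfl2). The control sets themselves differed in this gene (-0.72 ± 0.11, set 2 over set 1). The upstream neighbour of pfl2, SPAPB15E9.02c, went the other way in S2A-S7A (-2.89 ± 0.36 against set 2 and -1.96 ± 0.40 against set 1), at no more than 2.92 CPM in any library. Beside pfl7, the transporter gene abc3 was also lower in Y1F (-1.51 ± 0.12 against set 2 and -1.15 ± 0.11 against set 1), and the amino acid transporter gene aat1 stood at -1.39 ± 0.08 and -0.93 ± 0.13. Against set 2, abc3 was also called lower in T4A (-1.13), ALT-P3A (-1.14), ALT-P6A (-1.13) and ALT-S5A (-1.43), and against set 1 it stood at -0.75, -0.79, -0.77 and -1.04 in that order, the last of them called. In S2A, where pfl7 fell by 4.90 and 2.06, abc3 stood at -0.31 and 0.08. Beside pfl3, the ferric reductase gene frp2 was higher in S2A (1.07 ± 0.22 against set 2 and 1.01 ± 0.22 against set 1). The other coding neighbour of pfl3, apl2, stood at 0.31 ± 0.10 and 0.37 ± 0.10 there. The coding neighbours of gsf2 did not follow it in S2A. Against set 2 and set 1, SPCPB16A4.06c stood at -0.31 and 0.08, and SPCC1795.12c at -0.39 and 0.30.

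Other genes of adhesion and its control were counted against the control each allele's labels name. Of 5 other adhesin genes (4 tested in Y1F), 1 was called higher in S2A, in S2A-S7A, in T4A and in WT18, and 1 was called lower in every allele save S2A and S2A-S7A. In the alleles with a higher call, 5.27% (T4A) to 24.8% (WT18) of all genes were called higher. In those with a lower call, 1.07% (ALT-P3A) to 11.7% (WT18) of all genes were called lower. The flocculin gene pfl9 was lower in Y1F (-1.79 ± 0.18) and higher in T4A (1.34 ± 0.20) and WT18 (1.45 ± 0.38), and against the other set it stood at -0.86, 0.42 and 0.48, none of them called. The flocculin gene pfl6 was called higher in S2A-S7A and lower in T4A, ALT-P3A, ALT-P6A and WT18, at no more than 1.21 CPM in any library. Its libraries had 0.554 to 0.812 CPM in set 2 and 0.285 to 0.912 CPM in set 1. T4A, ALT-P3A and ALT-P6A lay at 0.176 to 0.394 CPM, so each overlapped set 1. Against set 1, only 4 of the 5 adhesin genes were tested in T4A, the ALT alleles and WT18. For map4, S2A had 98.4, 91.6 and 84.6 CPM, against 45.3, 42.0 and 40.1 CPM in set 1 (1.10 ± 0.10; 0.55 ± 0.08 against set 2).

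Of 15 other regulators listed, 14 matched an ID (rfl1 did not). Of these, 1 was lower in Y1F and in S2A, and 2 were higher and 2 lower in WT18. Of all genes, 5.11% and 5.63% were lower in Y1F and S2A, and 24.8% were higher and 11.7% lower in WT18. The counts among the 14 thus lay near or under those shares. The MADS-box gene mbx1 accounts for the calls in Y1F and S2A (-1.34 ± 0.12 and -1.05 ± 0.14) and was lower in WT18 (-1.05 ± 0.18). Against set 2 it stood at -0.59 in Y1F and -0.32 in S2A. Among the regulators listed, yox1 and fkh2 had their highest group means in WT18, at 28.1 and 63.7 CPM. They stood at 7.54 and 23.9 CPM in set 2 and at 11.9 and 31.7 CPM in set 1. The repressor genes lkh1, tup11, tup12, srb10 and cbf11 were not called against the named control. The LAMMER kinase gene lkh1 stood between -0.72 and 0.06, the co-repressor genes tup11 and tup12 between -1.0 and 0.48, the Mediator kinase gene srb10 between -0.41 and 0.02, and the CSL gene cbf11, which opposes cbf12, between -0.36 and 0.83. The tup12 value of -1.0 is that of WT18. Of 11 genes of wall remodelling and cell separation, 1 was higher in Y1F, S2A and S2A-S7A, in each case SPAC4H3.03c (2.54 ± 0.14, 1.44 ± 0.19 and 1.52 ± 0.16). Of all genes, 4.68%, 7.23% and 5.89% were. In WT18, 5 were lower, where 11.7% of all genes were, and against set 1 only 1 was (8.96%). Among the 5 was the glucanase gene eng1 (-1.26 ± 0.42). Its WT18 libraries had 199, 132, 553 and 207 CPM, against 598 to 696 CPM in set 2 and 517 to 577 CPM in set 1.

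Markers of mating type were checked in the same libraries. The 2 P-cell (h+) markers summed to 20.5 to 29.5 CPM in WT18, against 34.7 to 38.3 CPM in set 2 and 37.8 to 44.6 CPM in set 1, and to 17.3 to 34.9 CPM in the other alleles. The 5 M-cell (h-) markers summed to 43.2 and 45.6 CPM in the new and 73.6 and 59.8 CPM in the earlier WT18 libraries, against 70.6 to 78.5 CPM in set 2 and 60.4 to 68.5 CPM in set 1, and to 47.3 to 65.9 CPM in the other alleles. Against the named control, the P-cell marker map3 was called lower in Y1F, S2A and S2A-S7A (-1.18, -1.37 and -1.33). They averaged 15.55, 13.57 and 13.55 CPM, against 25.9 CPM in set 2 and 34.8 CPM in set 1. Against set 2, no P-cell marker was called in S2A-S7A. The M-cell marker mam2 was called lower in Y1F, S2A-S7A and WT18 (-2.15, -1.99 and -1.20). Y1F and S2A-S7A averaged 3.90 and 4.26 CPM of mam2, against 5.68 CPM in set 2 and 17.3 CPM in set 1. The M-cell marker mfm3 went the other way, at 2.28, 3.21 and 3.095 CPM in Y1F, S2A and S2A-S7A. Set 2 had 1.055 CPM of it and set 1 had 1.58 CPM. The M-cell marker mfm2, a pheromone precursor gene, had 27.0 and 19.5 CPM in the earlier and 12.2 and 9.76 CPM in the new WT18 libraries, against 1.66 to 3.12 CPM in set 2 and 0.816 to 0.987 CPM in set 1. Against set 2 it was called higher in WT18 (2.84 ± 0.41) and lower in T4A (-1.66 ± 0.31) and ALT-P6A (-1.06 ± 0.32). T4A and ALT-P6A averaged 0.785 and 1.14 CPM, against 2.38 CPM in set 2 and 0.886 CPM in set 1. The mfm2 level was thus highest in the same 4 libraries as adn2, of which 2 are the new h+ ones. The other M-cell markers were not high in WT18. Both mam1 and mam2 had their lowest group means there, at 34.3 and 2.45 CPM. By group mean, WT18 ranked 9 of 10 in mfm1 (0.374 CPM) and 7 of 10 in mfm3 (1.33 CPM). The part of mating type in the WT18 values was not tested. No library was at 0 for map2, mfm1 or mfm2.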

How the data were processed

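Counts per gene of 31 libraries were analysed. Per the submitters' processing notes, HISAT2 2.1.0, SAMtools, HTSeq 0.10.0 and DESeq2 were used with assembly ASM294v2; the deposited counts are not normalized. The authors' deposited tables give a log2 fold change, an adjusted p-value and a mean normalized signal per group, which were used as deposited. Gene lengths, overlaps and neighbours came from the RefSeq annotation of the reference genome, a later build than the authors', so no coordinates are given.

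Each comparison was fitted on all genes with edgeR 4.0.16 (R 4.3.3; TMM scaling, filterByExpr, quasi-likelihood test, Benjamini-Hochberg adjustment over the genes tested), without covariates, and the fit was tested on simulated counts. Between 5974 and 6149 genes were tested in each of 17 comparisons. DESeq2 1.42.0 was an alternative. Replicate libraries differed by more than sampling noise (chi-square per gene 6.69 to 394), so no pair was treated as 1 library; this does not show that they are separate cultures. No count column was left unused, and 269 IDs had no count.

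The 10 genes and the other lists were chosen with earlier results of these data known. All 10 are named throughout; of the other lists, genes called in at least 2 of the 8 alleles against the named control are named, with the known direct regulators; others named beside a result were chosen after their values were seen. The 3 genes of highest Pearson r were sought among genes of mean log2 CPM of at least 2. In the mating-type lists, map3 and mam2 were first entered under each other's cell type and were moved by their annotated products.

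The mean control signals in the authors' tables matched set 1's columns to 0.282% (median over genes) for Y1F, S2A and S2A-S7A. For the other alleles they missed set 2's columns by 28.7% and set 1's by 15.5%, so those tables are set beside both fits; the cause was not tested.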

Additional observations from a re-analysis of the deposited data

Results flagged for a closer look

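In WT18 against WT29 set 2, pfl2 stood at a log2 fold change of 0.17 with the 2 new libraries alone and at -0.26 with the 2 earlier libraries alone. The activator gene mbx2 stood at -0.27 with the new and at 0.29 with the earlier libraries. For both genes every new library lay on 1 side of set 2's mean and every earlier library on the other, and the difference between the origins was not tested. The origins differ in mating type, markers, RNA purification, kit and instrument, which cannot be told apart.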

How the results depend on the processing

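Of 1040 single-gene values with 1 library left out, 992 kept direction and side of the threshold, 10 lost and 12 gained a call, and 26 changed sign with no call either way; under the other settings 470 of 550 kept both, 8 lost and 42 gained a call, 21 changed sign with no call either way (pfl3 in Y1F stood at 0.75 against set 1 and -0.55 against set 2), and 9 changed sign with a call on at least 1 side. Those 9 came with the other control set: cbf12 stood at -1.47 in Y1F, -0.84 in S2A, -0.76 in S2A-S7A, 1.05 in WT18, 0.68 in T4A and ALT-P6A, 1.15 in ALT-P3A and 0.51 in ALT-S5A, and pfl3 at 1.25 in ALT-P3A. The cause was not tested. With that set, counts of called genes moved to 2 lower in Y1F, 1 higher and 1 lower in S2A-S7A, 0 higher and 1 lower in T4A, 2 higher and 0 lower in WT18, 2 higher in ALT-P3A, and 1 lower in ALT-P6A and ALT-S5A. With no minimum fold they were 3 higher and 5 lower in Y1F, 2 lower in S2A, 6 higher and 3 lower in S2A-S7A, 1 higher and 4 lower in ALT-P3A, 2 higher and 5 lower in ALT-P6A, 1 higher and 7 lower in ALT-S5A, 4 lower in WT18, and 1 lower in set 2 against set 1. The new WT18 libraries alone gave 3 lower against set 2 and 0 higher against set 1, and the earlier ones alone 1 lower against set 1. Leaving out 1 library at a time, counts against set 1 ranged from 2 to 3 higher in S2A, 1 to 2 higher and 0 to 1 lower in S2A-S7A, 1 to 2 lower in T4A, and 1 to 3 higher and 0 to 1 lower in WT18; against set 2 they ranged from 2 to 3 higher in S2A, 0 to 1 higher and 3 to 4 lower in T4A, and 1 to 2 lower in WT18. The other 24 of 34 counts did not move. For the set the labels do not name, leaving out libraries and splitting WT18 were chosen after seeing the data. DESeq2's test, its size factors and no filter moved no count of called genes beyond 1.5 times.

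With replicate number as a block, pfl7 stood at -2.95 in Y1F and pfl3 at 3.14 in S2A, and the counts of called genes did not change in Y1F, S2A or S2A-S7A, nor against set 1 in T4A or the ALT alleles, where the block was added after seeing the data. Same-numbered libraries deviated together unevenly (correlations from -0.38 to 0.37 in Y1F, -0.41 to 0.60 in S2A and -0.35 to 0.53 in S2A-S7A, -0.25 to 0.56 in T4A and -0.40 to 0.48 in the ALT alleles). Libraries of unlike number were not correlated for reference, so whether the numbers pair libraries was not settled. No paired analysis was possible against set 2 because its numbers, 4 to 6, are shared with the alleles in at most 1 case (WT18). WT18 was not fitted with a block against set 1.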
